A study of Mus musculus with 12 samples.

Results

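Messenger RNA of 10 CC chemokines that draw monocytes and related leukocytes into inflamed tissue was followed in mouse ear skin: Ccl2, Ccl3, Ccl4, Ccl5, Ccl6, Ccl7, Ccl8, Ccl9, Ccl12 and Ccl24. The members were chosen by gene symbol, with earlier results of these data known, and each symbol matched 1 Ensembl gene of the count table. They made up 10 of 50684 listed genes, and all 10 were among the 19408 genes that passed the filter on low counts. Female C57BL/6 mice, 8 weeks old, received intradermal injections into the ear pinnae of 1 µg IL-17A, of 1 µg IL-36γ, or of 1 µg of each together (IL-17A + IL-36γ), in a volume of 5 µL, and control mice received PBS. The ears were taken on day 4, after 4 days of consecutive treatment. RNA from a part of the ear of 3 of the 5 mice of each group was sequenced after depletion of ribosomal RNA. This gave 12 libraries. The labels name no genetic alteration in any group, and PBS was the solvent in all of them. The study set up this injection as a model of the cytokine network of psoriasis, and the comparisons here ask how each of these chemokines responded to either cytokine and to the pair.

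Chemokines of the CC family are small secreted proteins that bind G protein-coupled receptors on leukocytes and direct their migration. Ccl2, Ccl7 and Ccl12 act on Ccr2, the receptor that brings inflammatory monocytes out of the blood. Ccl3, Ccl4 and Ccl5 attract macrophages, T cells and other leukocytes, Ccl3 and Ccl5 in part through Ccr1, while Ccl6 and Ccl9 act on Ccr1, mouse Ccl8 on Ccr8, and Ccl24 on Ccr3 of eosinophils. In inflamed skin such chemokines are made by macrophages, fibroblasts, endothelial cells and keratinocytes, and ear tissue holds all of these, so more cells of a type and more RNA per cell cannot be told apart.

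Total counts per library ranged from 25293468 to 34759293. The markers of skeletal muscle, which can be cut along with the ear, summed to 127 CPM (read counts scaled to a common library total) in PBS replicate 1 and reached 1710 CPM in another PBS library, and they were lower in the IL-17A + IL-36γ group (70.96 to 588 CPM) than in the IL-17A group (1033 to 1404 CPM). Among the 3 IL-17A libraries, replicate 1 was the highest for all 10 chemokines. In PBS, replicate 2 was the highest for 8 of the 10. The part of muscle content or of these libraries in the results was not tested as a cause, and calls of the chemokines that change without a library are given with their values.

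The CPM values used TMM scaling, which corrects for library size and for composition. Differences were tested with the quasi-likelihood test of edgeR over all 19408 genes in 1 fit of the 4 groups. A gene is said to have risen or fallen where its Benjamini-Hochberg adjusted p-value was below 0.05 and its log2 fold change exceeded 1 in size. Fold changes are given as log2 values with their standard error (SE). Levels are given per library, as a range or as the mean of 3 libraries, in places with the standard deviation (SD). The comparisons against PBS share the same 3 control mice.

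Of the 10 genes, 9 lie on chromosome 11 of GRCm38 and Ccl24 lies on chromosome 5 (chr5:135569937-135573049, minus strand). Ccl2 (chr11:82035571-82037453), Ccl7 (chr11:82045712-82047525), Ccl12 (chr11:82101845-82103400) and Ccl8 (chr11:82115185-82116799) are neighbours on the plus strand. Farther along lie Ccl5 (chr11:83525778-83530518), Ccl9 (chr11:83572919-83578636), Ccl6 (chr11:83587882-83593087) and Ccl3 (chr11:83647844-83649355) on the minus strand and Ccl4 (chr11:83662584-83664683) on the plus strand. All are protein-coding. The gene spans of Ccl2 and Ccl6 overlap an antisense gene each, Gm17268 and E230016K23Rik, with 0 bases of exon shared. RefSeq promoter sequences of GRCm38.p6 were matched for 5 of the 10 genes, Ccl3, Ccl6, Ccl8, Ccl9 and Ccl12. The 250 bases before the start are shown for Ccl9 (chr11:83578637-83578886, minus strand) and Ccl8 (chr11:82114935-82115184, plus strand), which moved closely together over the libraries, and for Ccl3 (chr11:83649379-83649628, minus strand), whose values scattered widely between mice. Each reads 5′ to 3′ in gene direction, and capitals mark motif matches.
Ccl9: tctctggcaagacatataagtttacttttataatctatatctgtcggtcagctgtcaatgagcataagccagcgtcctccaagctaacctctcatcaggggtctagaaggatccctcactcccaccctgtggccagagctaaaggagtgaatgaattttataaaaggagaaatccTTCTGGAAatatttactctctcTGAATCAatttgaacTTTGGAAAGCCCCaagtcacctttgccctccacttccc
Ccl8: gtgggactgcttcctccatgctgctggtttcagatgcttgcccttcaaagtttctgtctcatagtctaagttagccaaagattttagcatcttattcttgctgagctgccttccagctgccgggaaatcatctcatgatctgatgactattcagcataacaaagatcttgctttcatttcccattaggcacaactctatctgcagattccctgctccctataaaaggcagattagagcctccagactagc
Ccl3: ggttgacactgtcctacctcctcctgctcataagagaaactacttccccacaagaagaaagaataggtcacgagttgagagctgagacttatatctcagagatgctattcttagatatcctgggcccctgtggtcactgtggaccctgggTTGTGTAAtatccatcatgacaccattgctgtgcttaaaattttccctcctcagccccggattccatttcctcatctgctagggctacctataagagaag
Both strands of each window were searched for NF-κB (by its usual consensus), AP-1 (TGANTCA), C/EBP (TTNNGNAA) and STAT (TTCNNNGAA) motifs. The Ccl9 window held an NF-κB match 35 bases before the start, an AP-1 match 53 bases before it, and C/EBP matches 75 and 38 bases before it, of which the nearer overlaps the NF-κB match. The Ccl3 window held a C/EBP match 100 bases before the start. No match to these letters stood in the windows of Ccl6, Ccl8 and Ccl12. Of 32851 promoter windows of the same length, 7.25% held the NF-κB motif, 6.75% AP-1, 36.8% C/EBP and 7.02% STAT.

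The combination of both cytokines moved almost every member. Against PBS, 8 of the 10 chemokines rose in the IL-17A + IL-36γ group and 1, Ccl24, fell, where 7.35% of all tested genes rose and 6.06% fell. With IL-36γ alone 5 rose (5.11% of all genes) and 0 fell (1.98%), and with IL-17A alone 4 rose (1.07%) and 0 fell (1.03%). Lack of overlap was also frequent: all 3 treated libraries lay above all 3 PBS libraries for 9 members with both cytokines (27% of all genes), for 7 with IL-36γ (22.4%) and for 5 with IL-17A (19.6%). The median log2 fold change of the 10 members was 2.05 with both cytokines, 1.44 with IL-36γ and 1.19 with IL-17A, beside medians of all genes of -0.03, -0.02 and 0.04. The 5 calls for IL-36γ ranged from 4 to 6 and the 9 for the combination from 7 to 10 over the other settings and left-out libraries, whereas the 4 calls with IL-17A were 1 without PBS replicate 3, 2 without IL-17A replicate 1 and 0 when only the PBS and IL-17A libraries entered the fit.

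**Figure D1:**
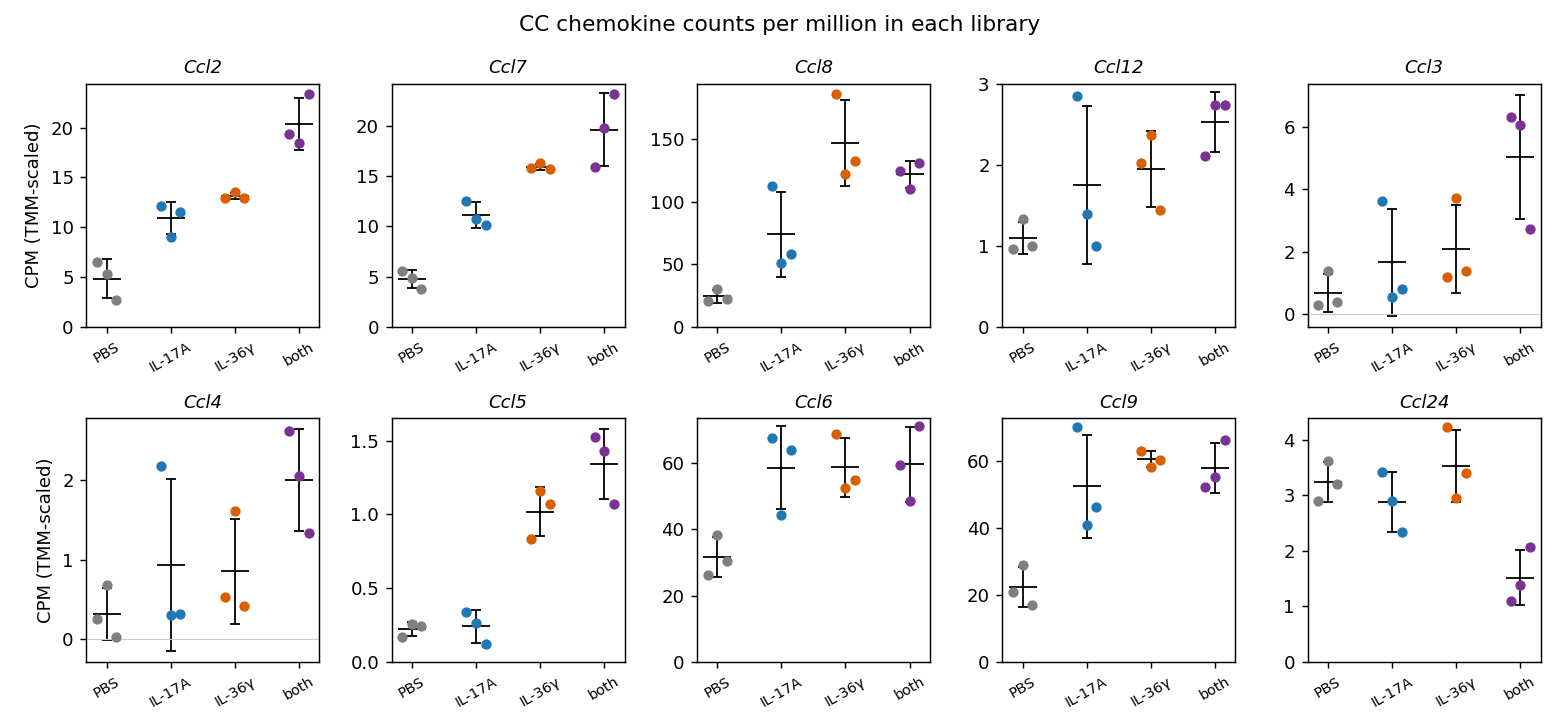
CPM of each chemokine in every library (points), by group on the horizontal axis, with the mean (bar) and SD (whiskers) of 3 libraries; each panel has its own linear axis. Ccl2 and Ccl7 stepped up from PBS to the combination, Ccl5 lay between 0.121 and 0.338 CPM in both groups without IL-36γ, and the combination libraries of Ccl24 (1.09 to 2.07 CPM) lay below all other libraries.

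Ccl2 and Ccl7 encode ligands of Ccr2 and sit next to each other on the chromosome. Ccl2 stood at 6.53, 5.29 and 2.73 CPM in the PBS libraries, at 12.1, 9.08 and 11.5 with IL-17A, at 12.9, 13.5 and 12.9 with IL-36γ and at 19.4, 18.4 and 23.4 with both. No library of a treated group reached down to PBS, and the combination lay above both single treatments. The log2 fold change against PBS was 1.16 ± 0.24 (SE) with IL-17A (adjusted p = 0.0203), 1.43 ± 0.24 with IL-36γ (adjusted p = 0.00132) and 2.07 ± 0.24 with both (adjusted p = 6.4e-05). The rise of Ccl2 with IL-17A lost its call without PBS replicate 2 (adjusted p = 0.0523), PBS replicate 3 (0.0655) or IL-17A replicate 1 (0.0969).

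Ccl7 stood at 5.59, 4.90 and 3.82 CPM with PBS, at 12.5, 10.8 and 10.1 with IL-17A, at 15.8, 16.3 and 15.7 with IL-36γ and at 15.9, 19.8 and 23.1 with both. The PBS, IL-17A and IL-36γ libraries did not overlap, and the IL-36γ and combination libraries did. Ccl7 rose by 1.22 ± 0.16 on the log2 scale with IL-17A (adjusted p = 0.00613), by 1.74 ± 0.16 with IL-36γ (adjusted p = 4.82e-05) and by 2.04 ± 0.16 with both (adjusted p = 9.66e-06). Among the 4 genes that rose with IL-17A it had the smallest adjusted p-value, and it was called in each fit that left out 1 library.

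Ccl12, a further Ccr2 ligand of rodents, was a low transcript with small changes. Its libraries read 0.969, 1.33 and 1.00 CPM with PBS, 2.86, 1.40 and 1.01 with IL-17A, 2.03, 2.38 and 1.45 with IL-36γ and 2.11, 2.74 and 2.74 with both. IL-17A replicate 1 was higher than any other library, while the other two of that group lay within or near the PBS range. Ccl12 rose with both cytokines (log2 fold change 1.201 ± 0.33, adjusted p = 0.012). With IL-36γ its value was 0.83 ± 0.34 (adjusted p = 0.0827) and with IL-17A 0.67 ± 0.34 (adjusted p = 0.203), with 95% intervals from 0.10 to 1.56 and from -0.07 to 1.41.

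Ccl8 had the widest range in CPM. In mice it is a ligand of Ccr8 and is known as a product of skin macrophages. The PBS libraries held 20.8, 30.5 and 22.2 CPM, those with IL-17A 112, 50.7 and 58.3, those with IL-36γ 186, 122 and 132, and those with both 124, 110 and 131. All treated libraries lay above PBS, and the IL-36γ libraries above all IL-17A libraries. Ccl8 rose by 1.59 ± 0.27 with IL-17A (adjusted p = 0.014), by 2.58 ± 0.28 with IL-36γ (adjusted p = 0.000108) and by 2.31 ± 0.28 with both (adjusted p = 8.11e-05), all on the log2 scale. Without PBS replicate 3 the rise of Ccl8 with IL-17A had an adjusted p of 0.0895.

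Ccl3 and Ccl4 encode macrophage inflammatory proteins, which attract monocytes, macrophages and T cells. Ccl3 stood at 0.277, 1.39 and 0.394 CPM with PBS, at 3.64, 0.532 and 0.805 with IL-17A, at 1.198, 3.72 and 1.38 with IL-36γ and at 6.32, 6.07 and 2.74 with both. In each of the first 3 groups 1 library stood far above the other two, and only the combination lay wholly above PBS. Ccl3 rose with both cytokines (log2 fold change 2.86 ± 0.75, adjusted p = 0.00903), and its values with IL-17A (1.26 ± 0.79, adjusted p = 0.299) and IL-36γ (1.61 ± 0.77, adjusted p = 0.132) did not pass. Without PBS replicate 2, the highest control, the log2 fold change of Ccl3 with both was 3.90. Without IL-17A replicate 1 its log2 fold change with IL-17A was -0.09.

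Ccl4 followed with fewer reads, from 1 read in PBS replicate 3 to 67 reads in a combination library. Its CPM values were 0.249, 0.680 and 0.0303 with PBS, 2.18, 0.299 and 0.322 with IL-17A, 0.532, 1.61 and 0.413 with IL-36γ and 2.61, 2.05 and 1.34 with both. The high library of each group was the same as for Ccl3. Ccl4 rose with both cytokines (2.61 ± 0.84 on the log2 scale, adjusted p = 0.0249), with a 95% interval from 0.78 to 4.43. That call was lost without PBS replicate 1 (adjusted p = 0.0525), PBS replicate 3 (0.0816), IL-17A + IL-36γ replicate 1 (0.0743) or IL-17A + IL-36γ replicate 2 (0.0525), and without PBS replicate 2 the log2 fold change of Ccl4 was 3.76.

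Ccl5, known as a product of T cells and natural killer cells and a ligand of Ccr1 and Ccr3, rose where IL-36γ had been given. It stood at 0.166, 0.255 and 0.242 CPM with PBS, at 0.338, 0.266 and 0.121 with IL-17A, at 0.832, 1.16 and 1.07 with IL-36γ and at 1.52, 1.43 and 1.07 with both. The PBS and IL-17A libraries overlapped (3 to 9 reads each), and all IL-36γ and combination libraries lay above them. The log2 fold change against PBS was 0.15 ± 0.39 with IL-17A (adjusted p = 0.836, 95% interval -0.71 to 1.00), 2.19 ± 0.31 with IL-36γ (adjusted p = 0.000567) and 2.58 ± 0.31 with both (adjusted p = 7.84e-05). The direct comparisons were called as well: Ccl5 was higher with IL-36γ than with IL-17A by 2.04 ± 0.32 (adjusted p = 0.0053) and higher with both than with IL-17A by 2.43 ± 0.32 (adjusted p = 0.000387).

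Ccl6 and Ccl9, ligands of Ccr1 that myeloid cells produce, were among the most abundant members. Ccl6 stood at 26.2, 38.2 and 30.3 CPM with PBS, at 67.5, 44.1 and 64.0 with IL-17A, at 68.8, 52.3 and 55.0 with IL-36γ and at 59.3, 48.5 and 71.1 with both. All 9 treated libraries lay above PBS, and the treated groups overlapped one another. Its adjusted p-value was below the threshold in each comparison (0.0225, 0.00551 and 0.00241), but its log2 fold changes of 0.89 ± 0.19, 0.89 ± 0.19 and 0.92 ± 0.19 stayed under 1, so Ccl6 was not called. Without PBS replicate 2 these values of Ccl6 were 1.04, 1.05 and 1.08 and all were called. Ccl6 was also called with IL-17A without IL-17A replicate 2 (log2 fold change 1.02, adjusted p = 0.0234 by edgeR) and with both without IL-17A + IL-36γ replicate 2 (1.03, adjusted p = 0.00244).

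Ccl9 stood at 21.0, 28.9 and 17.2 CPM with PBS, at 70.2, 41.1 and 46.3 with IL-17A, at 63.3, 58.3 and 60.5 with IL-36γ and at 52.3, 55.4 and 66.5 with both. Again every treated library lay above PBS and the treated groups overlapped. Ccl9 rose by 1.23 ± 0.21 with IL-17A (adjusted p = 0.0132), by 1.44 ± 0.21 with IL-36γ (adjusted p = 0.000605) and by 1.38 ± 0.21 with both (adjusted p = 0.000309) on the log2 scale. The rise of Ccl9 with IL-17A was not called without PBS replicate 3 (adjusted p = 0.0871), nor with IL-17A replicate 1 left out, where its log2 fold change was 0.932.

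Ccl24, an eosinophil attractant also called eotaxin-2, was the single member that fell. Its libraries read 2.91, 3.62 and 3.21 CPM with PBS, 3.42, 2.89 and 2.33 with IL-17A, 4.23, 2.95 and 3.41 with IL-36γ, and 1.09, 1.39 and 2.07 with both. The PBS, IL-17A and IL-36γ groups overlapped, and the combination lay below all of them. The log2 fold change with both was -1.09 ± 0.24 (adjusted p = 0.00329), while it was -0.17 ± 0.23 with IL-17A (adjusted p = 0.64, 95% interval -0.67 to 0.32) and 0.12 ± 0.22 with IL-36γ (adjusted p = 0.71, 95% interval -0.37 to 0.60). The log2 fold change of Ccl24 with both was -0.994 without PBS replicate 2 and -0.899 without IL-17A + IL-36γ replicate 1, each short of the fold threshold with adjusted p-values of 0.0145 and 0.0159.

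**Figure D2:**
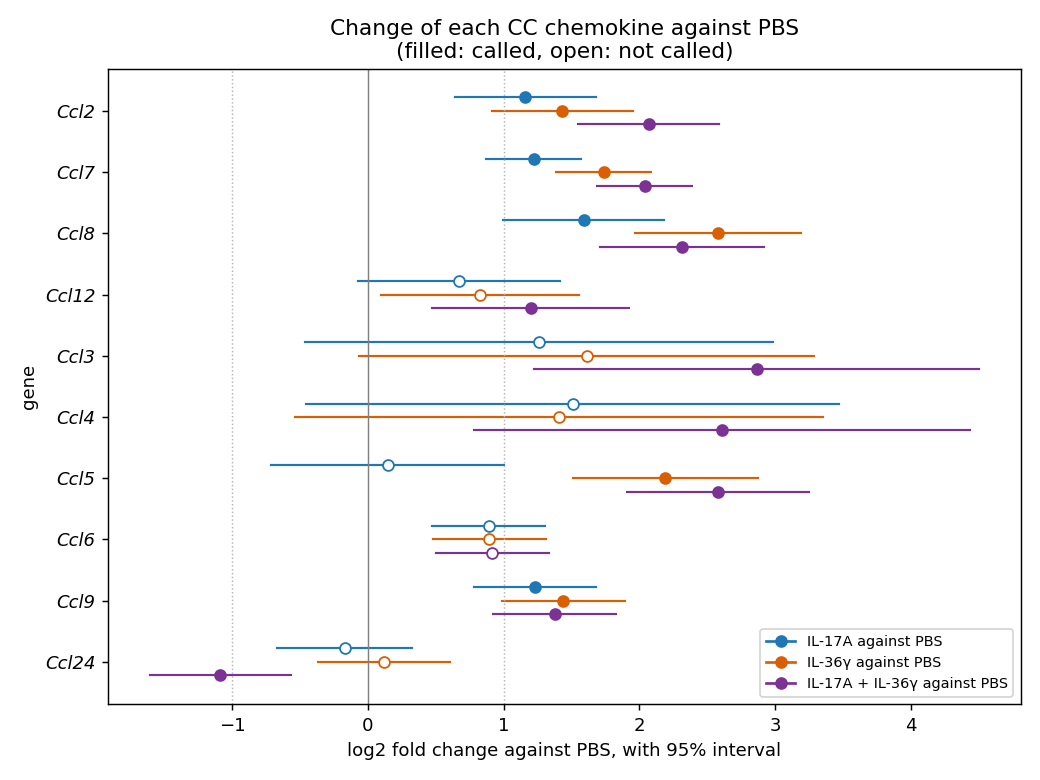
Log2 fold change against PBS (points) with its 95% interval (lines) for each chemokine with IL-17A, IL-36γ and both cytokines; filled points were called and dotted lines mark the fold threshold. Ccl8 with IL-36γ reached 2.58, the 3 values of Ccl6 lay just under 1, and the intervals of Ccl3 and Ccl4 were the widest.

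The addition of IL-17A to IL-36γ was compared directly. None of the 10 genes was called between IL-17A + IL-36γ and IL-36γ by edgeR (0% of all genes rose and 0.0103% fell), 2 had an unadjusted p-value below 0.05 (15.1% of all genes), and DESeq2 called 1, Ccl24, among 124 genes in all. The 2 at an unadjusted p-value below 0.05 were Ccl2, higher by 0.63 ± 0.23 on the log2 scale (adjusted p = 0.227), and Ccl24, lower with a log2 fold change of -1.204 ± 0.24 (adjusted p = 0.0964). Ccl2 was also the member whose 3 combination libraries all lay above the IL-36γ libraries (9.33% of all genes). Ccl24 passed without IL-36γ replicate 2 (adjusted p = 0.0438) and without IL-17A + IL-36γ replicate 3 (adjusted p = 0.0332). For Ccl8 the log2 difference was -0.27 (95% interval -0.84 to 0.30), for Ccl9 -0.06 (-0.50 to 0.38) and for Ccl6 0.02 (-0.39 to 0.44). For Ccl3 and Ccl4 the differences were 1.25 (-0.22 to 2.72) and 1.197 (-0.43 to 2.83), so that these libraries left room for changes of either sign.

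Against IL-17A alone, the combination raised 1 member, Ccl5 (4.46% of all genes rose), and lowered 0 (4.49% fell). At an unadjusted p-value below 0.05 there were 6 members (43.4% of all genes), and DESeq2 called 1 among 2061 genes in all. The combination libraries lay above all IL-17A libraries for 3 members, Ccl2, Ccl5 and Ccl7 (23% of all genes). Ccl2 (0.91 ± 0.23, adjusted p = 0.0107) and Ccl7 (0.82 ± 0.15, adjusted p = 0.00239) missed the fold threshold, and Ccl24 lay lower with a log2 fold change of -0.91 ± 0.24 (adjusted p = 0.0136). Without IL-17A replicate 1, the highest of its group for all members, 6 were called among 1752 genes in all (1737 in the main fit). They were Ccl2, Ccl3, Ccl4, Ccl5, Ccl8 and Ccl12. The log2 fold change was then 1.01 for Ccl2 (adjusted p = 0.0162 by edgeR), 2.95 for Ccl3 (0.0127) and 2.69 for Ccl4 (0.0286). It was 1.18 for Ccl8 (0.00201) and 1.09 for Ccl12 (0.0136). Without IL-17A replicate 3 (1638 genes in all) or IL-17A + IL-36γ replicate 3 (1990 in all) there were 2, Ccl5 and Ccl24.

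Between the single cytokines, Ccl5 was the 1 member raised by IL-36γ over IL-17A (1.25% of all genes), and 0 were lower (0.366%). The 3 IL-36γ libraries lay above the IL-17A libraries for 4 members, Ccl2, Ccl5, Ccl7 and Ccl8 (15.6% of all genes). Ccl8 was higher with IL-36γ by 0.99 ± 0.26 on the log2 scale (adjusted p = 0.0428), just short of the fold threshold, and it was called without IL-17A replicate 1 at 1.44. Ccl7 was higher by 0.52 ± 0.15 (adjusted p = 0.0602).

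Whether the effect of IL-17A differed with and without IL-36γ was tested as an interaction, namely the log2 step from IL-36γ to the combination less the log2 step from PBS to IL-17A, called by its adjusted p-value alone. By edgeR 0 of the 10 members were called below 0 (0.423% of all genes) and 0 above 0 (0.129%), and 5 had an unadjusted p-value below 0.05 (22.5% of all genes). DESeq2 called 4 (Ccl7, Ccl8, Ccl9 and Ccl24) among 2512 genes in all. The 5 were Ccl8 at -1.86 ± 0.38 (adjusted p = 0.0531), Ccl9 at -1.29 ± 0.29 (adjusted p = 0.0602), Ccl7 at -0.92 ± 0.22 (adjusted p = 0.067), Ccl6 at -0.87 ± 0.27 (adjusted p = 0.103) and Ccl24 at -1.03 ± 0.33 (adjusted p = 0.108). When PBS replicate 1 was left out, 3 members were called (Ccl7, Ccl8 and Ccl9) among 1534 genes in all. Without IL-36γ replicate 2 there was 1, Ccl8, among 226 genes in all. For Ccl3, Ccl4, Ccl5 and Ccl12 the 95% intervals were wide and held 0, as with -2.83 to 2.21 for Ccl4. The interval of Ccl2 held 0 as well (-0.53 ± 0.33, 95% interval -1.24 to 0.19, adjusted p = 0.353 by edgeR).

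On the scale of CPM, the rise with both cytokines was set against the sum of the single rises. For Ccl8 the single rises summed to 171 CPM and the combination rose by 97.2, an excess of -74.0 ± 28.5 CPM (SE). The excess was -32.7 ± 10.6 for Ccl9 and -26.0 ± 11.6 for Ccl6. For these genes the mean rise with the combination was less than the sum of the mean single rises. The IL-17A mean of Ccl8 includes replicate 1 at 112 CPM, beside 50.7 and 58.3 in the other libraries. For Ccl2 the excess was 1.21 ± 2.11 and for Ccl12 -0.07 ± 0.67, each smaller in size than its SE. For Ccl7 it was -2.69 ± 2.28, larger in size than its SE. Ccl3 had an excess of 1.97 ± 1.76, Ccl4 of 0.53 ± 0.84 and Ccl5 of 0.30 ± 0.18 CPM, and Ccl24 of -1.64 ± 0.60. No test was run on this scale.

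**Figure D3:**
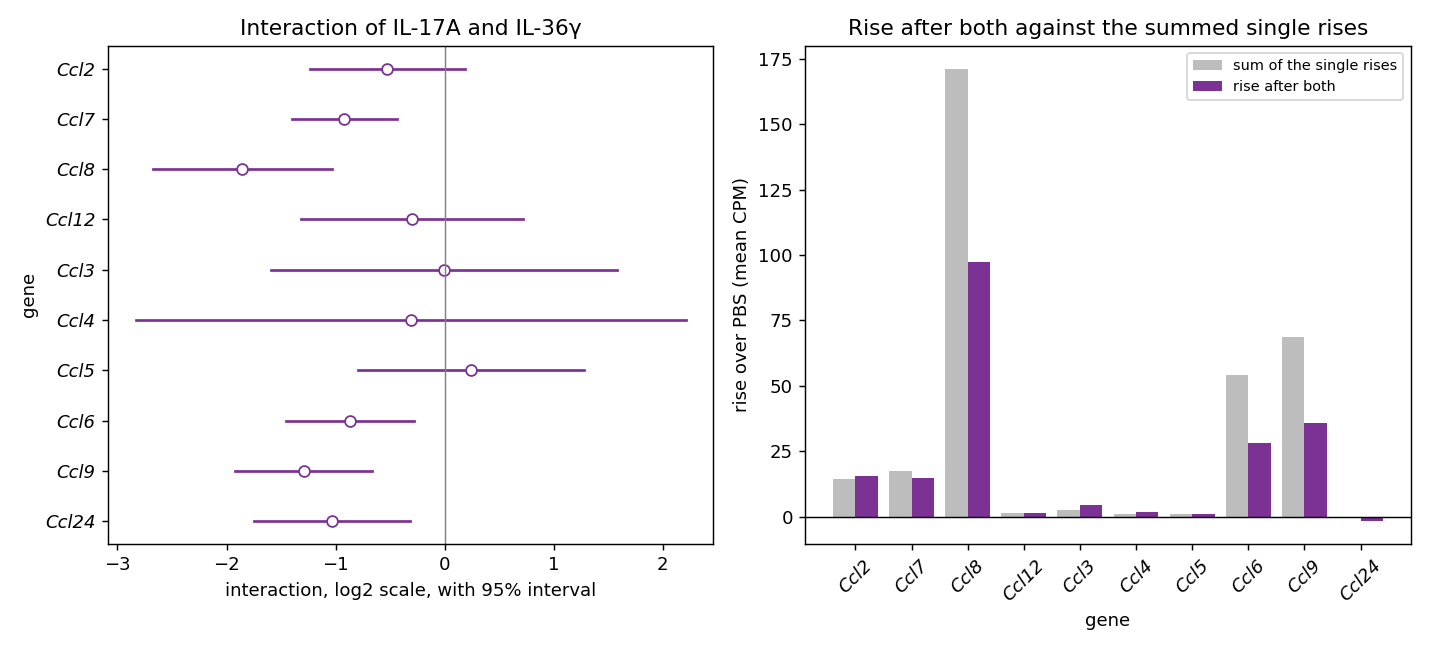
Left, interaction of IL-17A and IL-36γ on the log2 scale (points) with 95% intervals (lines); right, mean rise over PBS in CPM with both cytokines beside the sum of the rises after each alone. The intervals of Ccl6, Ccl7, Ccl8, Ccl9 and Ccl24 lie below 0 though no adjusted p-value passed, and the rise of Ccl8 with both (97.2 CPM) is smaller than the summed single rises (171 CPM).

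Levels between genes were compared per kilobase of exon. Ccl8 was the most abundant member in each group, with 47.98 CPM per kb with PBS, 144 with IL-17A, 287 with IL-36γ and 238 with both, and its libraries did not overlap with those of Ccl6, the next in order (17.6, 32.6, 32.7 and 33.2 CPM per kb). Ccl8 made up 53.7% of the members' summed level with PBS and 75.0% with IL-36γ. Ccl9, Ccl7 and Ccl2 came next, with Ccl9 and Ccl7 overlapping in each group and Ccl7 ahead of Ccl9 with both cytokines (24.5 against 19.1 CPM per kb). Ccl5 was the lowest in the first 3 groups (0.23, 0.252 and 1.06 CPM per kb), in overlap with Ccl4 with PBS and with IL-36γ. Ccl24, at 2.51 with PBS, was the lowest with both at 1.17, in overlap with Ccl5. The sum over the 10 genes was 89.3 ± 17.7 CPM per kb (SD, n = 3) with PBS, 227 ± 84.3 with IL-17A, 382 ± 70.8 with IL-36γ and 350 ± 30.03 with both. The sums with IL-36γ (334 to 464) and with both (320 to 380) overlapped, and all treated libraries lay above PBS (78.2 to 110).

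**Figure D4:**
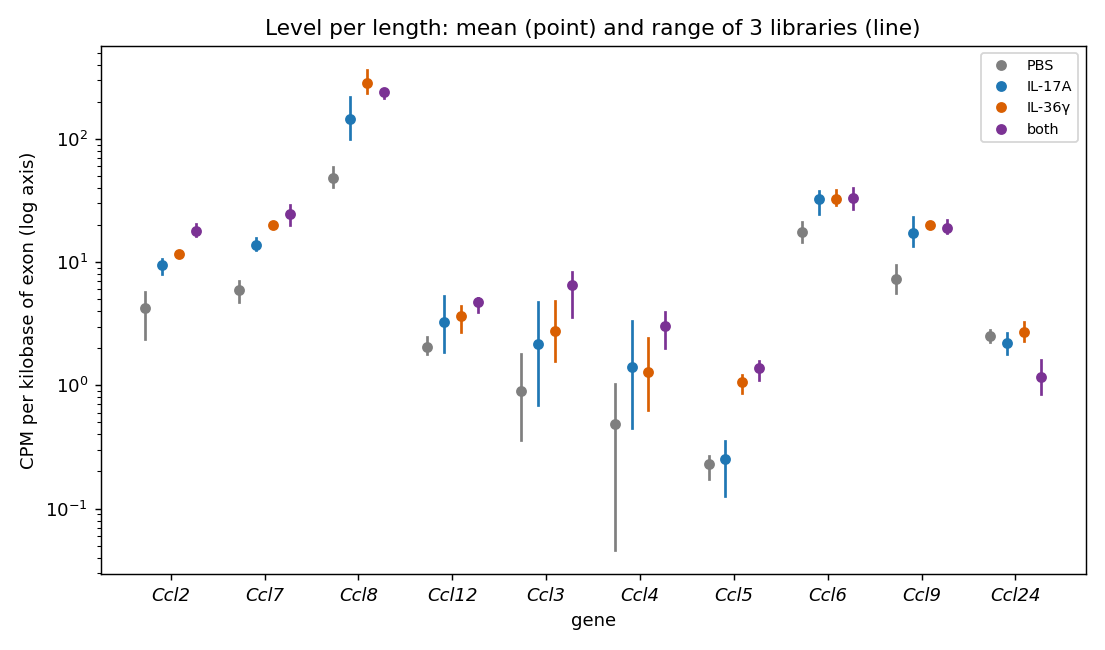
Level of each chemokine in CPM per kilobase of exon on a log axis, with the mean (point) and the range of 3 libraries (line) for each group. Ccl8 stands above all other members in each group, and Ccl5 and Ccl24 lie at the bottom with both cytokines (1.40 and 1.17).

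Over the 12 libraries, log2 CPM of Ccl2 and Ccl7 had a Pearson correlation of 0.96, Ccl8 and Ccl9 of 0.95, and Ccl3 and Ccl4 of 0.93. The 36 pairs of members without Ccl24 ranged from 0.48 to 0.96, and the 9 pairs with Ccl24 from -0.56 to -0.17. These values describe 12 points that fall into 4 treatment groups and share library and depth, so they include the differences between the groups. Among genes outside the list, Tlr8 (0.99), a receptor for RNA in phagocytes, Mrc1 (0.98), the macrophage mannose receptor, and Tpcn1 (0.98) were most like Ccl8. Ccl9 was most like Fli1 and Glipr2 (0.97 each) and Mrc1 (0.97), and Ccl2 most like Fxyd5 (0.97), Msr1 (0.97), a macrophage scavenger receptor, and Pitpna (0.96). Ccl3 was most like the inflammasome gene Nlrp3 (0.97), Lilr4b (0.96) and Trem1 (0.96), a receptor of neutrophils and monocytes, and Ccl4 most like Cxcl3 (0.97), a chemokine of neutrophils, Nlrp3 (0.96) and Clec4d (0.95). Ccl5 was most like Xdh (0.97), Itgal (0.96), a chain of the lymphocyte integrin LFA-1, and Gimap3 (0.96). Kcnab2, Cltc and Fam111a (0.98 each) were most like Ccl7. For Ccl6 they were Cysltr1 (0.95), Mrps21 (0.95) and Ppt1 (0.93), for Ccl12 Plek (0.95), Cd80 (0.94) and Slfn5 (0.94), and for Ccl24 Ddo (0.94), Hivep2 (0.94) and Il20ra (0.94).

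**Figure D5:**
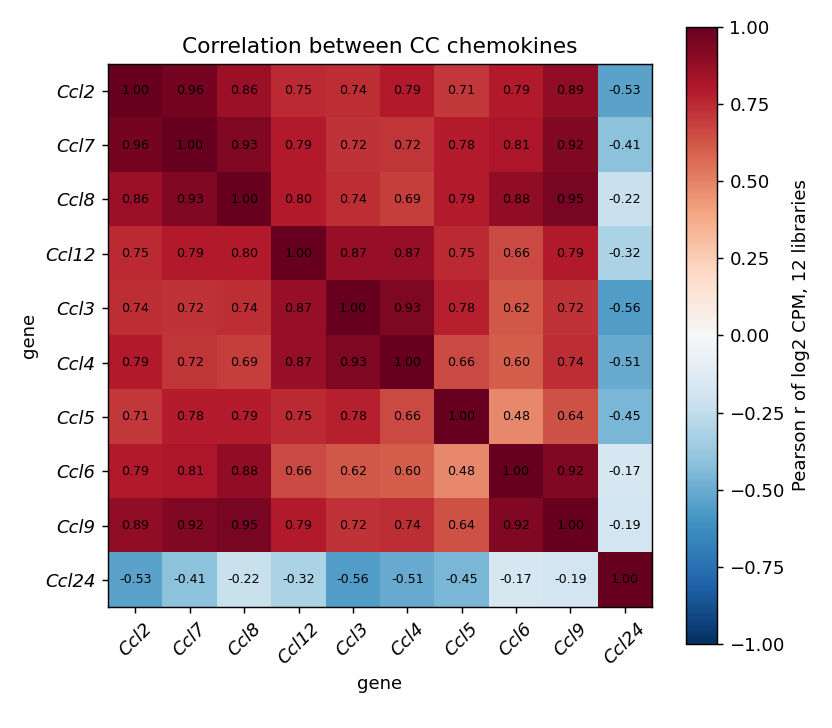
Pearson correlation of log2 CPM between each pair of chemokines over 12 libraries, from -1 (blue) to 1 (red). Ccl24 is negative with each of the other 9 (-0.56 to -0.17), and Ccl2 with Ccl7 has the highest value (0.96).

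Receptors of these ligands rose as well. Of the 4 reported here, Ccr1, Ccr2, Ccr3 and Ccr8, 2 rose with IL-17A (Ccr1 and Ccr2) and all 4 rose with IL-36γ and with both. Ccr2 went from 46.6 CPM with PBS to 106 with IL-17A, 186 with IL-36γ and 201 with both, with log2 fold changes of 1.19 ± 0.19, 1.9998 ± 0.19 and 2.11 ± 0.19 (adjusted p = 0.0118, 5.59e-05 and 1.86e-05). Ccr1 went from 4.24 ± 2.91 CPM (SD) to 15.5 ± 11.3, 18.7 ± 4.70 and 35.6 ± 9.75, and its rise with IL-17A had an adjusted p of 0.0467 by edgeR. Ccr3 went from 0.506 CPM to 0.788, 2.48 and 2.51. Between the combination and IL-36γ edgeR called 0 of the 4, and the smallest unadjusted p-value was 0.0847 for Ccr1. Against IL-17A alone, the combination raised Ccr3 (log2 fold change 1.67 ± 0.37, adjusted p = 0.00526).

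Of the 15 listed genes that carry the signal of these receptors or drive leukocyte adhesion and movement, 1 rose with IL-17A, 6 with IL-36γ and 7 with both, and 0 fell. Rac2, a GTPase of blood cells that shapes the actin skeleton, went from 6.20 CPM to 10.5, 24.2 and 27.9, with a log2 fold change of 2.17 ± 0.18 with both (adjusted p = 1.27e-05). Itgb2 (1.56 ± 0.14) and Itgam (2.59 ± 0.25), the chains of an integrin of myeloid cells, and Dock2 (1.40 ± 0.13), an activator of Rac, rose too.

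Atypical receptors bind chemokines without classical signalling and remove or present them. Of 4 listed, Ackr4 fell with both cytokines, from 64.4 to 27.9 CPM (log2 fold change -1.21 ± 0.14, adjusted p = 6.53e-05), and Ccrl2 rose from 1.79 to 4.05 CPM (1.18 ± 0.40, adjusted p = 0.0305). Ackr2, a scavenger of inflammatory CC chemokines, was at 13.5, 13.4, 10.2 and 7.64 CPM, with a log2 value of -0.82 ± 0.12 with both that missed the fold threshold (adjusted p = 0.000311). After either cytokine alone 0 of the 4 were called.

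Of 11 other CC chemokines listed, 8 were tested, and 0 were called with IL-17A, 1 rose with IL-36γ and 1 fell with both. Ccl20, the Ccr6 ligand made by keratinocytes, rose with IL-36γ from 1.296 to 7.77 CPM (SD 4.51, log2 fold change 2.57 ± 0.66, adjusted p = 0.0139). It stood at 2.91 CPM with both (SD 2.97, log2 fold change 1.17 ± 0.67, adjusted p = 0.174). Ccl27a, a chemokine of keratinocytes that attracts skin-homing T cells, fell with both from 8.36 to 1.81 CPM (-2.20 ± 0.28, adjusted p = 0.000113). Ccl11, which like Ccl24 is a Ccr3 ligand, was at 5.89, 7.30, 5.62 and 3.52 CPM and fell between IL-17A and the combination (-1.05 ± 0.24, adjusted p = 0.00638).

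Markers of leukocytes that bear these receptors or make these chemokines were followed in the same groups, and the lists differed in how many genes moved. Of 12 markers of monocytes and macrophages, 2 rose with IL-17A, 10 with IL-36γ and 9 with both, and their sum was 541 to 645 CPM with PBS, 893 to 1148 with IL-17A, 1383 to 1545 with IL-36γ and 1370 to 1478 with both. Examples were Adgre1 (35.5, 59.2, 149 and 125 CPM) and Lyz2 (234, 452, 621 and 606 CPM), and Ccr2 and Itgam stand on this list as well. Of 9 markers of resident macrophages, 1 rose with IL-17A, 5 with IL-36γ and 3 with both, and their sum was 618 to 729, 944 to 1352, 1209 to 1497 and 1007 to 1264 CPM. Mrc1 was at 204, 348, 459 and 438 CPM and C1qb at 47.4, 100, 144 and 131 CPM.

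Of 7 tested neutrophil markers, 3 rose with IL-17A, 5 with IL-36γ and 6 with both, and 1 fell with IL-36γ (Ltf), while edgeR called 0 of the 7 between the combination and IL-36γ. Their sums were 15.4 to 24.5 CPM with PBS, 29.5 to 67.6 with IL-17A, 62.6 to 92.5 with IL-36γ and 105 to 213 with both. Csf3r went from 4.02 to 14.4, 32.9 and 76.05 CPM and Cxcr2 from 5.14 to 17.1, 21.5 and 42.3. Of 4 tested markers of eosinophils, 0 rose with IL-17A and 4 with IL-36γ and with both. The Ccl24 receptor Ccr3, given above among the receptors, stands on this list as well and enters its sums. The sums of the eosinophil list were 0.886 to 1.61 CPM with PBS, 1.70 to 2.18 with IL-17A, 3.13 to 6.82 with IL-36γ and 3.26 to 6.91 with both. No listed marker of these 4 cell types was at 0 in all libraries. How far the content of these cells accounts for the values of the chemokines was not tested.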

How the data were processed

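RNA-Seq of a part of the ear covered 4 treatment groups of 3 mice, as named by the sample titles. Per the labels, the libraries were made with a stranded total RNA kit, and the authors' tools were STAR 2.5.2b, featureCounts of Subread 1.5.1 and DESeq2 1.30.0 on mm10. The authors deposited raw counts per Ensembl gene, 1 column per mouse, without normalization; the strand setting of the counting and the annotation release are not given in the sources used here. The authors' tables of comparisons hold fold changes and p-values, and only their identifiers and symbols were used, which cover 47092 genes. The spread behind the p-values is that between the 3 mice of a group, estimated over all 4 groups together in 1 fit.

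The software was edgeR 4.0.16 and DESeq2 1.42.0 under R 4.3.3. Genes were kept by filterByExpr with a minimum count of 10, scaled by TMM and tested by the quasi-likelihood test in 1 fit of 12 libraries, with calls made where the adjusted p-value was under 0.05 and the log2 fold change over 1 in size. SE and 95% intervals follow from the F statistic. CPM is computed from the counts, correlations from log2 CPM with a prior count of 2, and exon lengths and positions come from GENCODE vM21 of GRCm38, the build that mm10 denotes. Total counts were 25293468 to 34759293. No library duplicated another of its group. The procedure was tested on simulated data. From the receptor list, 1 gene is not reported here. The members, the lists of receptors, signalling genes, other chemokines and cell type markers, and the comparisons were chosen with earlier results of these data known. The genes named are the 10 members, up to 4 genes of each list with the lowest p-value for the combination against PBS (genes named beyond these were chosen after their values were seen), and for each member the 3 other genes with the highest correlation. Alternatives were DESeq2, other scalings and filters, fits of 2 groups, no fold threshold, the replicate number as a term, and each library left out.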

Additional observations from a re-analysis of the deposited data

How the results depend on the processing

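No label says what a shared replicate number marks. The deviations of same-numbered libraries from their group means had correlations of -0.20 to 0.35, over 0.1 in 9 of 18 pairs, and those of other pairs -0.50 to 0.36, over 0.1 in 9 of 36. The tests carry no replicate block, since not every same-numbered pair was over 0.1. Whether the number marks a batch cannot be told from these values. PBS replicate 2 had its highest correlation with IL-17A + IL-36γ replicate 3. With the replicate block the count of called members went from 1 to 2 between IL-36γ and IL-17A, where Ccl8 was added (log2 fold change 1.02, adjusted p = 0.0337 by edgeR). In the interaction it went from 0 to 2, for Ccl8 (adjusted p = 0.0332) and Ccl9 (adjusted p = 0.0474). The genes called in all in the interaction went from 107 without the block to 883 with it. Of 70 results, over all alternatives, 1269 values kept direction and side of the threshold, 41 gained a call, 17 lost one and 37 changed sign, all of the last among differences that were not called. The 4 members called after IL-17A against PBS were 0 with only the 2 groups in the fit, where 9 genes in all were called. With a library left out they were 1 to 5, among 11 to 913 genes in all. Between the combination and IL-36γ, the 0 called members were 1 by DESeq2 (124 genes in all) and 1 without a filter on low counts (82 in all). With a library left out they were 0 to 1 (0 to 62 in all). Between the combination and IL-17A, the 1 called member became 2 without a filter, 0 with at least 10 counts in every library, since Ccl5 was then not tested, 4 without a fold threshold and 1 to 6 with a library left out. Between IL-36γ and IL-17A, the 1 (313 genes in all) became 2 with library size only (319 in all) and 2 without a filter (403 in all). It became 0 with at least 10 counts (219 in all) and 2 without a fold threshold (1548 in all). With a library left out it was 1 to 2 (69 to 392 in all). In the interaction, the 0 (107 genes in all) became 4 by DESeq2 (2512 in all) and 3 without a filter (462 in all). With a library left out they were 0 to 3 (1 to 1534 in all). Apart from the settings named, the cause was not tested.

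Scaling by library size only turned the log2 value of Ccl5 after IL-17A to -0.0265 and that of Ccl24 after IL-36γ to -0.0381. It moved the median of all genes against PBS to -0.13, -0.16 and -0.17 for the 3 treatments in the order IL-17A, IL-36γ, combination, and the share of calls above 0 from 51.1% to 21.6%, from 72.0% to 54.1% and from 54.8% to 41.9%, while the members' medians were 1.02, 1.29 and 1.92. In the interaction it moved the median of all genes from -0.07 to 0.11 and the share above 0 from 23.4% to 33.3%. The interaction of Ccl3 was 0.0103 by DESeq2, 0.0213 with size factors, 0.188 with library size only, 0.0164 without a filter and 0.0145 with at least 10 counts. With a library left out, log2 values after IL-17A ranged for Ccl3 from -0.0898 to 2.29, for Ccl4 from -0.0935 to 2.65 and for Ccl5 from -0.18 to 0.44, and for Ccl24 after IL-36γ from -0.0526 to 0.24. Between the combination and IL-36γ they ranged for Ccl6 from -0.11 to 0.16 and for Ccl9 from -0.16 to 0.0070, and between the combination and IL-17A for Ccl6 from -0.12 to 0.18. Between IL-36γ and IL-17A they ranged for Ccl3 from -0.36 to 1.68, for Ccl4 from -0.96 to 1.48, for Ccl6 from -0.15 to 0.13 and for Ccl12 from -0.11 to 0.71. In the interaction they ranged for Ccl3 from -1.03 to 1.35, for Ccl4 from -1.44 to 1.301, for Ccl5 from -0.0563 to 0.58 and for Ccl12 from -0.57 to 0.28. Behind the values of Ccl5 and Ccl4 stood 3 to 39 and 1 to 67 reads a library, and small differences in these genes were not resolved. The IL-17A libraries of Ccl4 held 58, 9 and 8 reads. How far depth and the spread between mice each bear on this was not tested.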

Other observations

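Markers of the remaining cell types show where the ear samples differed beyond the myeloid cells. Of 3 tested markers of NK cells, which are known to make Ccl5, 0 rose with IL-17A and 2 with IL-36γ and with both: Gzma went from 0.0661 CPM with PBS to 0.159 with IL-17A, 1.199 with IL-36γ and 2.13 with both, and Ncr1 from 0.0288 to 0.074, 0.735 and 1.17 CPM. Of 8 markers of T cells, 0 rose with IL-17A, 3 with IL-36γ (Cd4, Cd8a and Trac) and 2 with both (Cd8a and Trac). With both, 0 were called lower, but Cd3g and Cd3e of this list had values below PBS. Cd3g went from 9.51 to 5.83 CPM (log2 fold change -0.71 ± 0.12, adjusted p = 0.000742 by edgeR), short of the fold threshold. Cd3e went from 3.76 to 2.43 CPM (-0.63 ± 0.26, adjusted p = 0.067). Trac, a chain of the T cell receptor, stood at 0.516, 0.801, 1.86 and 2.35 CPM. The summed T cell markers lay between 30.2 and 46.4 CPM in all libraries. Whether these cells bear on the level of Ccl5 was not tested.

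Of 6 markers of Langerhans and dendritic cells, 1 fell with IL-36γ and with both, namely Cd207, the langerin gene of Langerhans cells, at 19.5, 19.9, 4.73 and 1.999 CPM. Krt1, a keratin of differentiating epidermis, rose in each treated group (392, 1160, 3443 and 7254 CPM), as 1 of 5 keratinocyte markers called after either cytokine alone and 2 with both, Krt14 being the other. Of 6 mast cell, 5 fibroblast and 4 endothelial markers, 0 were called by edgeR against PBS in any treated group. Of 5 skeletal muscle markers 0 were called against PBS, and 2 fell between IL-17A and the combination.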
